A study of Mus musculus with 6 samples.

Results

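The NF-κB transcription factor subunits, 2 of their cytoplasmic IκB inhibitors and the IKK kinase complex were followed in CD4+TCRβ+ lymph node cells of B6 and B6-ChrYSJL females. The 10 genes asked for were Nfkb1, Nfkb2, Rel, Rela, Relb, Nfkbib, Nfkbie, Ikbkb, Chuk and Ikbkg, and a gene was measured through the transcript cluster that the platform annotation pairs with its symbol. With this rule 8 of the 10 genes were found, each with a single cluster, among 23410 tested transcripts. Expression of Nfkb1 and Chuk was not analysed here.

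NF-κB factors are dimers of Rel family proteins. In resting T cells most of them are held in the cytoplasm by IκB proteins or by the uncleaved precursors encoded by Nfkb1 and Nfkb2. In the canonical route, antigen receptor or TNF receptor signals activate the IKK complex, which phosphorylates the IκB proteins and so frees dimers that contain RelA or c-Rel. In the non-canonical route, a subset of TNF receptor family members stabilises the kinase NIK, the Nfkb2 precursor is processed, and dimers of its product with RelB enter the nucleus.

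The samples were 3 pools of B6 (C57BL/6J, wild type) and 3 pools of B6-ChrYSJL, which has the C57BL/6J background and ChrY from SJL. Each pool held sorted cells from the axillary, brachial and inguinal nodes of 5 naive females aged 8 weeks. Females carry no ChrY, so the groups differ in the ChrY of their fathers, and the comparison asks whether the daughters' T cells differ with it. RNA was read on Affymetrix gene arrays, and every value below is a normalised log2 signal, in which a difference of 1 is a doubling.

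Matches to the κB consensus, the DNA motif that NF-κB dimers bind, lay within 250 bases before to 50 bases after an annotated start of Rel, Nfkb2 and Nfkbie. Stretches of 60 bases around these matches are shown, because they place members of the family among the genes with κB sequence at their own start. The sequences are RefSeq's for GRCm38.p6, written 5′ to 3′ on the gene's strand with the matching bases in capitals, and a match is a description of the letters only. In Rel and Nfkb2 the longest run in capitals joins overlapping matches on both strands.
Rel, chr11:23771022-23771081, minus strand, -112 to -53 from the start: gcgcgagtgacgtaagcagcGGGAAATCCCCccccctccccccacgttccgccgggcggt
Nfkb2, chr19:46304677-46304736, plus strand, -60 to -1 from the start: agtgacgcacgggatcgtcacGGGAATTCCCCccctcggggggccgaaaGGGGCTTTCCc
Nfkbie, chr17:45555574-45555633, plus strand, -126 to -67 from the start: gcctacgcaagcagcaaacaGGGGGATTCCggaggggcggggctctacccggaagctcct
The promoter table held 12 promoters of 7 of the 10 genes, and 5 of the 12 contained the motif. It held none of Nfkb1, Relb or Ikbkb, so these genes were not searched for a match. Some genes had several starts, and overlapping windows of Nfkb2 shared a match, so the 12 are not separate. No match was found in the windows of Chuk, Ikbkg, Nfkbib and Rela. Among all 32851 promoters of this length, 8.46% contained it on either strand. Counted by gene, 12.3% of genes above background with a promoter had a match.

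The 6 arrays were alike in scale, with median signals of 6.41 to 6.44 and correlations between arrays of 0.991 to 0.993. The background level was set at 5.98, under which 95 percent of transcripts for smell and vomeronasal receptors lay, and all 8 measured genes lay above it. Transcripts of the sorted cell type were high in both groups, with Cd4 at 11.5 and Cd3e at 12.5 in each. Cd8a lay above background too (6.94 in B6 and 6.40 in B6-ChrYSJL), as did 5 of 9 B cell markers. Of all transcripts tested with limma, 4 differed between the groups at an FDR of 0.05 (0.0171%), and 2484 (10.6%) had an unadjusted p under 0.05, 1385 of them lower and 1099 higher in B6-ChrYSJL.

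Among the 8 measured genes, signals of Relb and Ikbkb were lower in B6-ChrYSJL in every pool, by 0.29 and 0.27 on the log2 scale. The other 6 differed by less, with 95% intervals that contained 0. None of the 8 passed an FDR of 0.05 or of 0.1 in limma, the second of which 0.0726% of all tested transcripts did. At an unadjusted p under 0.05, 2 of 8 were lower and 0 higher, against 5.92% of all tested transcripts and 7.16% of those above background that were lower. In the same 2 of 8 genes all B6-ChrYSJL pools lay below all B6 pools, which held for 9.42% of all tested transcripts and 12.2% of those above background. Over both directions, groups did not overlap for 17.1% of tested transcripts.

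**Figure D1:**
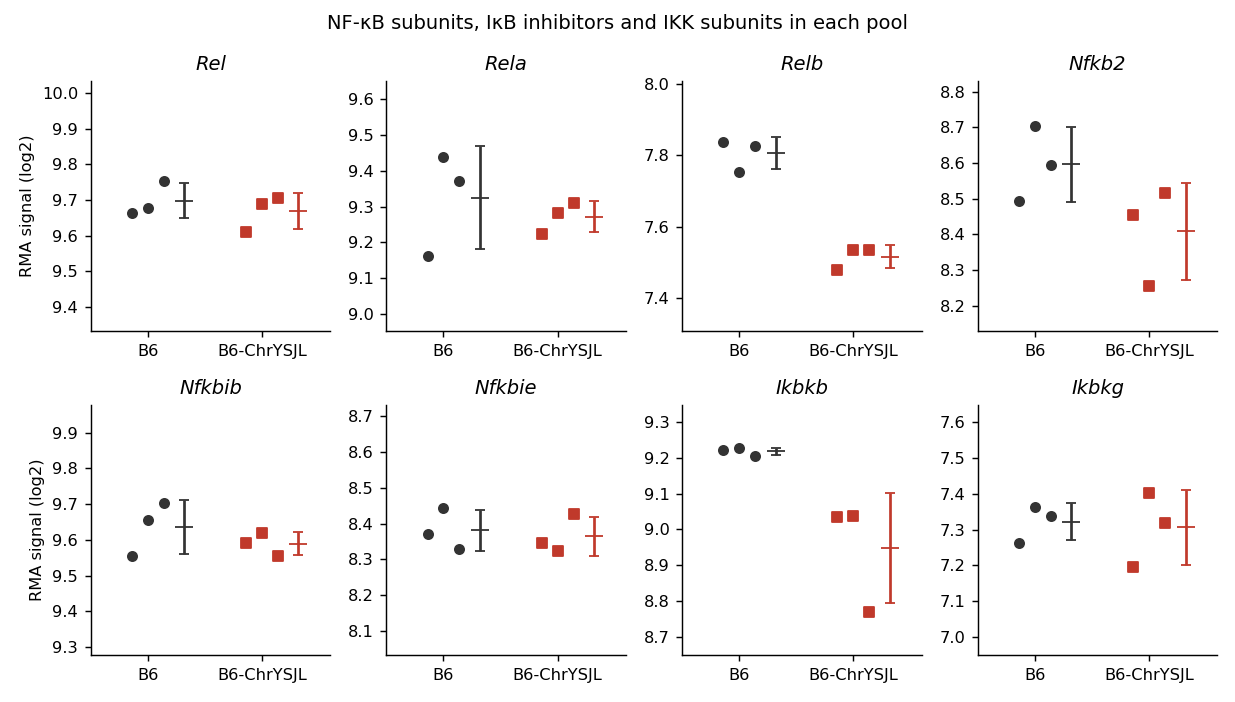
Normalised log2 signal of each of the 8 measured genes in each pool, with 3 B6 and 3 B6-ChrYSJL points per panel and bars for the mean and SD. The 2 groups are separate for Relb and Ikbkb and overlap for the other 6 genes.

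Relb encodes RelB, the subunit of the non-canonical route. Its signal was 7.84, 7.75 and 7.83 in the B6 pools and 7.48, 7.53 and 7.53 in the B6-ChrYSJL pools. The lowest B6 pool and the highest B6-ChrYSJL pool were 0.22 apart, a gap wider than the spread within either group. The means were 7.81 ± 0.05 and 7.52 ± 0.03 (SD, n = 3 pools each). The log2 fold change was -0.29 (SE 0.06, 95% interval -0.43 to -0.15), or 0.818 times the B6 signal. In limma the unadjusted p was 0.00155 and the adjusted p 0.254. The size of this difference exceeded that of 96.9% of all tested transcripts.

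Nfkb2 encodes the precursor whose processed form pairs with RelB. Its signal was 8.49, 8.70 and 8.59 in B6 and 8.45, 8.26 and 8.52 in B6-ChrYSJL. The third B6-ChrYSJL pool lay above the first B6 pool, so the groups overlapped. The log2 fold change was -0.19 (SE 0.09, 95% interval -0.40 to 0.02), with an unadjusted p of 0.0704 and an adjusted p of 0.511 in limma. Left out one at a time, the first B6 pool or the third B6-ChrYSJL pool gave a log2 fold change of -0.24 with limma's unadjusted p at 0.0442 and 0.0432. Without the second B6 pool it was -0.13 (limma unadjusted p = 0.212), and without the second B6-ChrYSJL pool -0.11 (limma unadjusted p = 0.234).

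The subunits of the canonical route, RelA and c-Rel, carry the activation domains of the dimers that IκB proteins retain. Rela read 9.16, 9.44 and 9.37 in B6 and 9.22, 9.28 and 9.31 in B6-ChrYSJL, all within the B6 range. Its log2 fold change was -0.05 (95% interval -0.25 to 0.14, limma adjusted p = 0.859). Rel read 9.66, 9.68 and 9.75 in B6 and 9.61, 9.69 and 9.70 in B6-ChrYSJL, again with overlap. Its log2 fold change was -0.03 (95% interval -0.18 to 0.12, limma adjusted p = 0.902). The interval of Rela still held a difference of the size seen for Nfkb2, and the number of arrays limits the precision.

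Set against another subunit within the same array, a gene's difference does not depend on the scaling of that array, although signals of different probe sets share no common zero. Relb minus Rel was -1.83, -1.92 and -1.93 in the B6 pools and -2.13, -2.15 and -2.17 in the B6-ChrYSJL pools, with no overlap. The change in this difference was -0.26, and that of Relb minus Rela was -0.24. For Nfkb2 the corresponding changes were -0.16 against Rel and -0.14 against Rela, and the groups overlapped in both. Such differences reuse the signals of the single genes and are no separate support. Their overlap was not counted over other gene pairs.

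The IκB proteins encoded by Nfkbib and Nfkbie retain Rel dimers in the cytoplasm until IKK marks them for degradation. Nfkbib read 9.55, 9.66 and 9.70 in B6 and 9.59, 9.62 and 9.56 in B6-ChrYSJL. Nfkbie read 8.37, 8.44 and 8.33 in B6 and 8.35, 8.32 and 8.43 in B6-ChrYSJL. The groups overlapped for each inhibitor. The log2 fold changes were -0.05 (95% interval -0.20 to 0.11, limma adjusted p = 0.836) for Nfkbib and -0.02 (-0.17 to 0.14, limma adjusted p = 0.949) for Nfkbie.

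Ikbkb encodes the catalytic subunit IKKβ, which phosphorylates IκB proteins in the canonical route. Its signal was 9.22, 9.23 and 9.21 in B6 and 9.03, 9.04 and 8.77 in B6-ChrYSJL. The SD of the B6 pools was 0.01, while the third B6-ChrYSJL pool lay well below the other 2 of its group and widened that group's SD to 0.15. The log2 fold change was -0.27 (SE 0.09, 95% interval -0.47 to -0.08), or 0.829 times the B6 signal, with an unadjusted p of 0.0125 and an adjusted p of 0.370 in limma. Without the third B6-ChrYSJL pool it was -0.18 (limma unadjusted p = 0.0385, adjusted p = 0.642).

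Ikbkg encodes NEMO, the regulatory subunit without which the canonical complex is not activated. It read 7.26, 7.36 and 7.34 in B6 and 7.20, 7.40 and 7.32 in B6-ChrYSJL, with overlapping groups. Its log2 fold change was -0.02 (95% interval -0.19 to 0.16, limma adjusted p = 0.955). Within arrays, Ikbkb minus Ikbkg was 1.96, 1.86 and 1.87 in B6 and 1.84, 1.64 and 1.45 in B6-ChrYSJL, without overlap and with a change of -0.25.

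**Figure D2:**
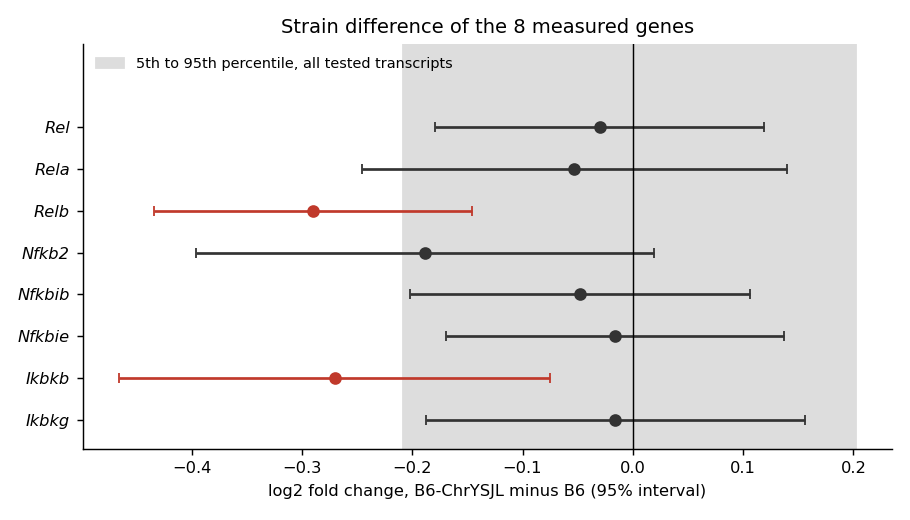
Log2 fold change (B6-ChrYSJL minus B6) of each of the 8 genes with its 95% interval from limma, over a grey band that spans the 5th to 95th percentile of all tested transcripts, -0.21 to 0.20. The intervals of Relb and Ikbkb lie below 0 and those of the other 6 genes cross it.

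All 8 log2 fold changes were below 0, with a median of -0.05 against -0.0036 over all tested transcripts and -0.02 over those above background, of which 8006 of 14394 were below 0. Without the first B6 pool the median of the 8 genes was -0.11. With the arrays quantile-normalised again, 6 of 8 were below 0, the exceptions being Nfkbie and Ikbkg. Without the second B6 pool, 5 of 8 were below 0.

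The rest of the pathway was read from 8 lists with 90 genes, of which 83 were measured. None of the 83 passed an FDR of 0.1 in limma. At an unadjusted p under 0.05, 15 were lower and 4 higher in B6-ChrYSJL, against 5.92% lower and 4.69% higher of all tested transcripts. Of the 83 genes 78 lay above background, where 7.16% of tested transcripts were lower. All B6-ChrYSJL pools lay below all B6 pools for 19 of the 83 and above them for 2. The lower pattern held for 9.42% of all tested transcripts and 12.2% of those above background. The same shares apply to each list below. The median log2 fold change over the 83 genes was -0.04.

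**Figure D3:**
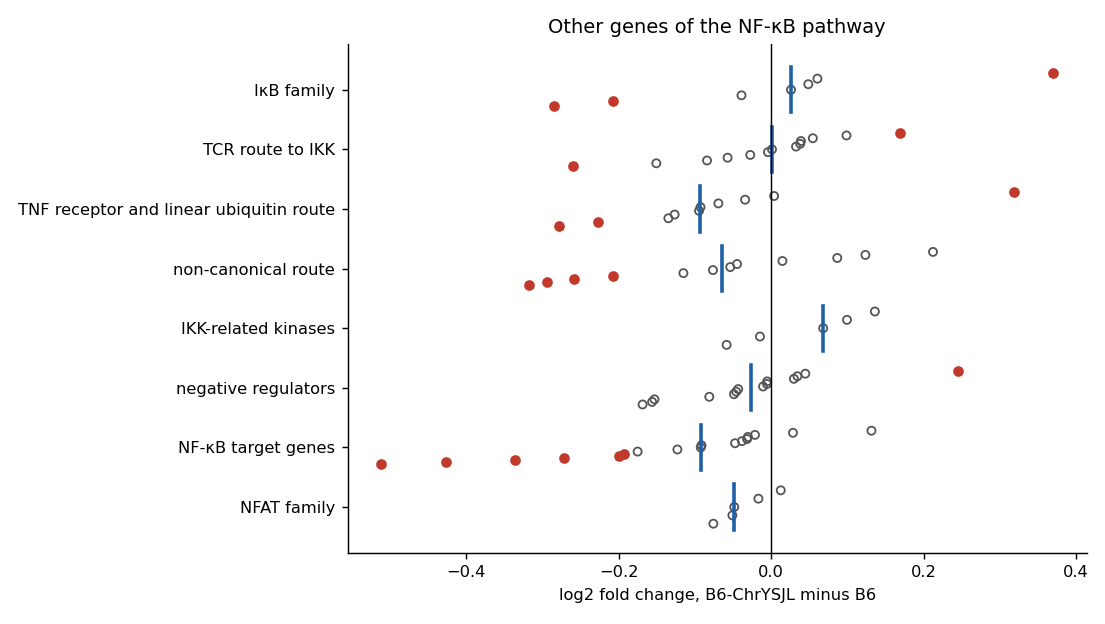
Log2 fold change (B6-ChrYSJL minus B6) of the 83 other pathway genes by list, 1 point per gene, red where the unadjusted limma p is under 0.05, with a blue mark at each list's median. All red points lie below 0 in the lists of the non-canonical route and of NF-κB target genes.

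The list of the non-canonical route, 12 measured genes for receptors, a ligand, adaptors, the kinase NIK and ubiquitin ligase subunits, included 4 that were lower at an unadjusted p under 0.05 and 0 that were higher, with a list median of -0.06. Map3k14, which encodes NIK, read 8.24, 8.29 and 8.34 in B6 and 8.12, 8.04 and 8.10 in B6-ChrYSJL, a log2 fold change of -0.21 (SE 0.06) with limma's unadjusted p at 0.0116 and adjusted p at 0.368. Tnfrsf9, the costimulatory receptor 4-1BB, read 8.76, 8.78 and 8.86 in B6 and 8.43, 8.54 and 8.55 in B6-ChrYSJL. Its log2 fold change was -0.29 (limma adjusted p = 0.282). Btrc, the substrate adaptor of the ubiquitin ligase that targets phosphorylated IκB and the Nfkb2 precursor, had a log2 fold change of -0.32 (limma adjusted p = 0.319). In each of these 3 genes the groups did not overlap. The remaining lower gene, Tnfrsf4, had -0.26 (limma unadjusted p = 0.0421) with overlapping groups. Its unadjusted p rose above 0.05 in 8 of 15 alternatives with other processing or 1 pool left out.

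The wider IκB family, 7 measured genes, held 2 that were lower and 1 that was higher at an unadjusted p under 0.05, with a list median of 0.03. Nfkbia encodes IκBα, the inhibitor that NF-κB itself induces. It read 10.14, 10.20 and 10.30 in B6 and 10.00, 9.99 and 10.02 in B6-ChrYSJL, a log2 fold change of -0.21 (limma unadjusted p = 0.0140, adjusted p = 0.376). Without the third B6 pool the unadjusted limma p of Nfkbia was 0.0579. Nfkbid, a nuclear IκB, read 8.39, 8.34 and 8.42 in B6 and 8.17, 8.04 and 8.09 in B6-ChrYSJL, a log2 fold change of -0.28 (limma adjusted p = 0.292). Nkiras2, a small GTPase-like protein that binds IκBβ, was the gene with the higher signal, at a log2 fold change of 0.37 (limma adjusted p = 0.368).

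The antigen receptor route to IKK, 13 measured genes, had 1 lower and 1 higher at an unadjusted p under 0.05 and a median of 0.00. Bcl10 and Malt1, which act together between the T cell receptor and IKK, had log2 fold changes of 0.00 and 0.03. Tab1, a subunit of the TAK1 kinase complex, had -0.26 (limma unadjusted p = 0.0440), and -0.13 (limma unadjusted p = 0.140) without the third B6-ChrYSJL pool. Pdpk1, a kinase of the PI3K pathway, had 0.17 (limma unadjusted p = 0.0468), and Map3k7, TAK1 itself, had -0.15 (limma unadjusted p = 0.0789). The TNF receptor and linear ubiquitin list, 10 measured genes, had 2 lower and 1 higher. Traf1, an adaptor of TNF receptor family members, read 9.10, 9.07 and 9.34 in B6 and 8.94, 8.94 and 8.80 in B6-ChrYSJL, a log2 fold change of -0.28 (limma unadjusted p = 0.0136). Tnfrsf1b, the second TNF receptor, had -0.23 (0.0119), and Ikbip, below background, had 0.32 (0.0057).

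Of 17 measured genes in the list of NF-κB targets, 6 were lower and 0 higher at an unadjusted p under 0.05. Of all tested transcripts 5.92% were lower at this threshold, and of those above background 7.16%. The list's median log2 fold change was -0.09. The count holds for this list only. Other genes with a κB match at their start stood in other lists, among them Nfkbia (-0.21) and Tnfaip3 (0.24). Gadd45b, a stress-response gene, read 8.21, 8.31 and 8.63 in B6 and 7.88, 7.77 and 7.96 in B6-ChrYSJL, a log2 fold change of -0.51 (limma unadjusted p = 0.00168, adjusted p = 0.260). Cd83, a surface protein of activated lymphocytes, read 7.95, 7.73 and 7.98 in B6 and 7.48, 7.55 and 7.34 in B6-ChrYSJL, a log2 fold change of -0.43 (limma unadjusted p = 0.00137, adjusted p = 0.254). Lta, the cytokine lymphotoxin α, had -0.27 (limma unadjusted p = 0.0265), and -0.16 (limma unadjusted p = 0.0703) without the first B6-ChrYSJL pool. The groups did not overlap for Gadd45b, Cd83 or Lta. The remaining lower genes were Irf4 (-0.20, limma unadjusted p = 0.0333), Bcl2l1 (-0.19, limma unadjusted p = 0.0486) and Il2 (-0.34, limma unadjusted p = 0.0499). The groups did not overlap for Irf4 or Bcl2l1, while Il2 lay below background and its groups overlapped. With other processing or 1 pool left out, the unadjusted p rose above 0.05 in 6 of 15 alternatives for Irf4. It did so in 9 of 15 for Bcl2l1 and in 7 of 14 for Il2.

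Of 14 measured negative regulators, 1 was higher and 0 lower at an unadjusted p under 0.05. That gene was Tnfaip3, encoding the ubiquitin-editing inhibitor A20, at 9.72, 9.80 and 9.99 in B6 and 9.96, 10.05 and 10.23 in B6-ChrYSJL. Its groups overlapped, and its log2 fold change of 0.24 (limma unadjusted p = 0.0366, adjusted p = 0.447) had an unadjusted limma p of 0.133 without the third B6-ChrYSJL pool, 0.122 without the first B6 pool, 0.0902 without the second B6 pool and 0.0635 without the second B6-ChrYSJL pool. Tnip1, a partner of A20, and Otud7b, a deubiquitinase, had -0.17 (limma unadjusted p = 0.0575) and -0.16 (0.0613). No gene of the IKK-related kinases (5 measured) or of the NFAT family (5 measured), the calcium-dependent factors that act beside NF-κB, had an unadjusted limma p under 0.05. In these 2 lists the smallest p values belonged to Tank (0.14), Azi2 (0.10) and Tbkbp1 (0.07), and to Nfat5 (-0.05), Nfatc4 (-0.08, below background) and Nfatc2 (-0.05), each given as a log2 fold change.

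Markers of some T cell subsets were lower in the B6-ChrYSJL group, as were Relb and Ikbkb. The marker lists were chosen with earlier results of these data known, so their counts are descriptions and carry no test. All 8 measured activated or memory T cell markers were lower in B6-ChrYSJL at an unadjusted p under 0.05, as were 5.92% of all tested transcripts. Their median log2 fold change was -0.57, with list mean levels of 8.22 to 8.33 in B6 and 7.58 to 7.80 in B6-ChrYSJL. Klrg1 alone of the 8 was not above background. Of 6 regulatory T cell markers 4 were lower, with levels of 8.89 to 9.03 and 8.56 to 8.65. Foxp3, the defining factor of regulatory T cells, had a log2 fold change of -0.21 (limma adjusted p = 0.359), and Itgae, an integrin subunit on part of them, had -0.87 (limma adjusted p = 0.0218). In pooled cells, fewer cells of a type and less RNA per cell cannot be told apart, and the part of these markers in the NF-κB values was not tested.

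T cell markers (7 measured) had a median log2 fold change of -0.01 and 0 at an unadjusted limma p under 0.05. Naive T cell markers (6 measured) had 2 lower and a median of 0.04, and CD8 and cytotoxic markers (6 measured) had 2 lower, Cd8a at -0.54 and Cd8b1 at -0.28. The rest of the CD8 and cytotoxic list had overlapping groups and went both ways. Klrd1 had -0.14 and Nkg7 -0.16, while Eomes had 0.11 and Gzmk, below background, 0.23. B cell markers (9 measured) had list mean levels of 5.92 to 6.02 in B6 and 5.92 to 6.39 in B6-ChrYSJL with 1 higher, H2-Ab1 at 0.64. Their median log2 fold change was 0.20 (0.08 to 0.36 with 1 pool left out) and 8 of 9 were above 0. Cd79b, a chain of the B cell receptor complex, lay above background at a mean of 7.43, and Blk, Cr2, Fcer2a and Ms4a1 did not lie above it. Dendritic and myeloid markers (10 measured), cells known for high RelB, had levels of 5.95 to 6.05 in B6 and 5.92 to 5.94 in B6-ChrYSJL with 1 lower and 1 higher, and Clec9a, Csf1r, Flt3, Itgax and Xcr1 were not above background. Lymph node stroma markers (6 measured) had 3 higher and levels of 6.34 to 6.39 in B6 and 6.44 to 6.51 in B6-ChrYSJL, with Pdgfrb not above background. The part of these lists in the NF-κB values was not tested.

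**Figure D4:**
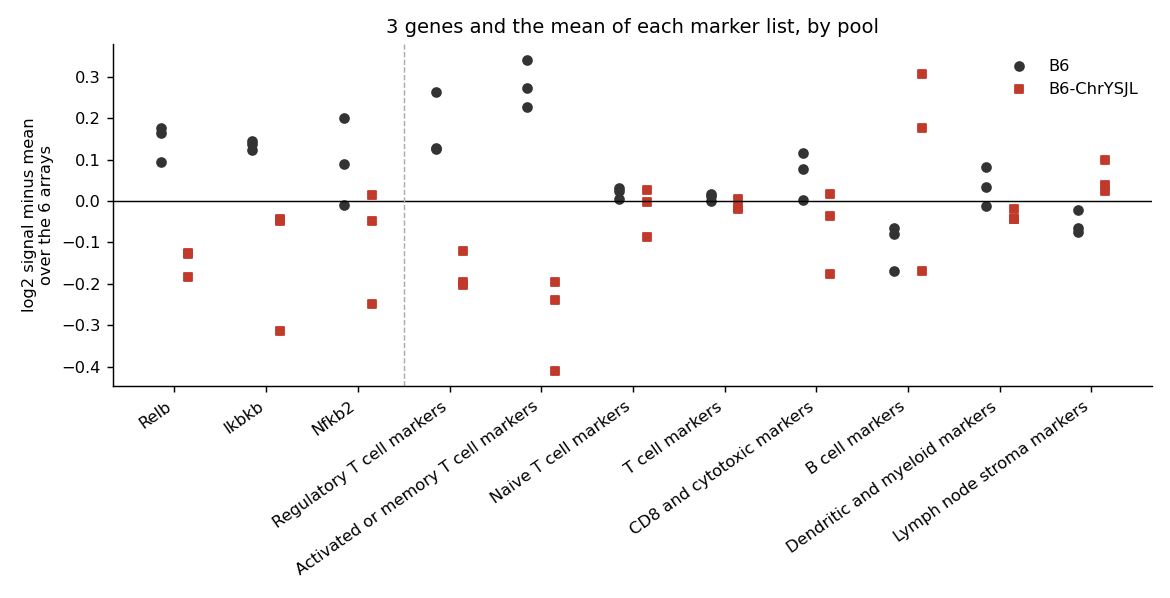
Log2 signal in each pool, centred on the mean of all 6 arrays, for NF-κB genes and for the means of marker gene lists. Relb, Ikbkb and the activated or memory and regulatory T cell lists lie above 0 in every B6 pool. They lie below 0 in every B6-ChrYSJL pool, and the lymph node stroma list lies the other way in every pool.

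The κB match at a gene's start was set beside the differences as a description. Among genes above background with a promoter in the table, 1207 contained the motif and 8573 did not, and their median log2 fold changes were -0.03 and -0.02. Of those with the motif 8.29% were lower at an unadjusted limma p under 0.05, against 7.59% without it. In the pathway lists 18 of 65 genes with a promoter contained it, among them Nfkbia, Nfkbid and Bcl3 of the IκB family. Of the members with a match shown above, Nfkb2, Rel and Nfkbie had log2 fold changes of -0.19, -0.03 and -0.02.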

How the data were processed

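RNA of sorted CD4+TCRβ+ cells was read on 6 Affymetrix Mouse Gene ST arrays, 3 per group, from 50 ng of RNA that was amplified before labelling. The authors deposited log2 values made with RMA in Partek (background correction, quantile normalisation, median polish over probes), with GCOS and mm9 listed too in the processing notes of the submitters. Quantile normalisation gives all arrays the same distribution, so a shift of the whole transcriptome cannot be seen. No further normalisation was applied. Pools were taken as biological replicates, as the methods describe them. In limma the p-values rest on the spread between pools, moderated across transcripts.

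Of 35556 transcript clusters, 21789 had 1 symbol in the platform annotation, 1621 several and 12146 none. A linear model of B6-ChrYSJL minus B6 was fitted to the 23410 with a symbol (limma version 3.58.1 under R version 4.3.3, functions lmFit and eBayes), and p-values were adjusted by Benjamini-Hochberg across these 23410. Every p is two-sided and from limma, apart from those of the unmoderated linear model of the methods. A gene with several clusters was represented by its brightest. Named genes were all members and the 3 genes of each pathway list with the smallest unadjusted p. Any other pathway gene at an unadjusted p under 0.05 or past an FDR of 0.1 was named too. Nfkbia, Bcl10, Malt1, Map3k14 and Tnfaip3 were always named. So were the 3 genes whose signals were most like those of the member with the smallest p (Relb) and of the member with the widest range (Ikbkb). The members, gene lists and tests were chosen with earlier results of these data known. The fit was tested on simulated data with differences larger than that of any member, which says nothing about finding smaller ones. Alternatives were another prior, the methods' unmoderated linear model, array weights, other transcript filters, other scaling, a replicate block and leaving out each pool.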

Additional observations from a re-analysis of the deposited data

How the results depend on the processing

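Relb was lower in B6-ChrYSJL in all 15 alternatives, with log2 fold changes of -0.32 to -0.25, unadjusted p of 0.000723 to 0.00692 and adjusted p of 0.152 to 0.592. Ikbkb was lower in all of them with unadjusted p of 0.0026 to 0.0386. No member passed an FDR of 0.1 in any alternative, and 2 or 3 of 8 had an unadjusted p under 0.05, the third being Nfkb2 (0.0379 with an intensity trend and robust prior). The number of transcripts past an FDR of 0.05 was 4, and it was 47 with the trend and robust prior, 13 with only transcripts above background, 11 after median-centring, 8 with the mean over all clusters of a gene, 2 after renewed quantile normalisation, 0 over all deposited clusters (3435 at an unadjusted p under 0.05) and 0 with the methods' unmoderated linear model (2274 at an unadjusted p under 0.05). Leaving out 1 pool gave 0 to 7, with 1781 to 2517 at an unadjusted p under 0.05. The 19 other pathway genes at an unadjusted p under 0.05 became 12 to 18 without 1 pool, with 12 without the third B6 pool and 12 without the third B6-ChrYSJL pool. Of the pathway genes described at an unadjusted p under 0.05, some had one above 0.05 in at least 1 alternative. These were Tab1, Pdpk1, Lta, Tnfaip3, Traf1, Nfkbia, Nkiras2, Irf4, Bcl2l1, Il2 and Tnfrsf4. With a replicate block, 3 transcripts passed an FDR of 0.05 and 2 members and 17 pathway genes had an unadjusted p under 0.05. Deviations of same-numbered pools correlated at -0.01, -0.03 and 0.00, and no pool correlated best with its own number, so the numbers were not taken to pair the samples. With 3 pools a group and a median SE of 0.08, differences of the size seen for most members could not be told from 0.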

Other observations

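The transcripts whose signals followed Relb most closely over the 6 arrays, among 13476 others above background, were Ide, which encodes the insulin-degrading enzyme (Pearson r = 0.998), Ahnak, a large scaffold protein (0.996), and Tnfrsf18, the receptor GITR (0.992). For Relb, 122 transcripts had r above 0.95. For Ikbkb the closest were Dnmt1, the maintenance DNA methyltransferase (0.999), Rnf123, a ubiquitin ligase subunit (0.995), and Ebna1bp2, a nucleolar protein (0.994), and 88 transcripts had r above 0.95. These correlations are descriptions over 6 arrays that include the difference between the groups, and they carry no test.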
